A study of Mus musculus with 2 samples.

Results

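Imprinted genes are transcribed mainly or only from the copy inherited from 1 parent, and 32 of them, chosen by gene name, were followed here in the heart of aged mice. They are 32 of the 55536 annotated genes in the deposited tables, and all 32 were found in both kinds of table. Of these members, 26 are annotated as protein-coding and 6 as noncoding. The libraries hold total RNA of the heart of female B6CASTF1/J mice aged 18 to 20 months, the F1 hybrid of the C57BL/6J and CAST/EiJ strains, with 300 ng of RNA and ERCC spike-in RNA in each library. There is 1 group of 2 libraries, biological replicates 1 and 2, with no treatment, no young animals and no other tissue. The labels name separate biosamples but the same donor entry for both, so part of their spread may be technical, and no test of a condition was possible. The tables sum the reads of both parental alleles, so the values are total levels and carry no information on which allele was active.

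In imprinting, a methylation mark laid down in egg or sperm is kept through development and decides which parental copy of a gene is used. Imprinted genes lie in clusters that are often governed by a long noncoding RNA or by an insulator at the marked element. Many of them act on fetal growth, the placenta, metabolism or the brain, and in the heart several of them fall after birth.

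The cardiac identity of the libraries was checked first. All 7 cardiomyocyte markers were detected, and their summed level was 28541 TPM in replicate 1 and 27331 TPM in replicate 2, where TPM is a relative level corrected for transcript length and scaled to the library. Markers of other sources differed between the libraries more than this. The 6 erythroid markers summed to 23412 and 11151 TPM, the 4 atrial markers to 441 and 1066, the 8 adipocyte markers to 248 and 621, the 6 B and plasma cell markers to 7.35 and 117, and the 6 airway markers to 0.99 and 282 TPM. Fabp4 alone held 207 and 301 TPM of the adipocyte sum, and the median of the adipocyte markers was 2.9 TPM in replicate 1 and 33.5 TPM in replicate 2. Fibroblast markers summed to 494 and 576 TPM and endothelial markers to 205 and 181. The part of these differences in the values of the imprinted genes was not tested. In bulk tissue, fewer cells of a type and less RNA per cell cannot be told apart. The depth was 35897521 expected counts for replicate 1 and 36926429 for replicate 2. A gene listed with no reads could thus have had up to 3 counts, which is 0.0836 and 0.0812 CPM (counts scaled to the library total).

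Of the 32 imprinted genes, 20 were detected, that is, at 1 TPM or more in both libraries. Over all annotated genes the share detected was 21.6%, and over protein-coding genes it was 50.0%. Among the members, 16 of 26 protein-coding and 4 of 6 noncoding genes passed. No member lay above 1 TPM in 1 library and below it in the other. The lowest detected member was Zim1, with 1.26 and 1.32 TPM in replicates 1 and 2, and the highest undetected one was Peg10, with 0.47 and 0.44 TPM. Levels were 10 TPM or more in both libraries for 10 members, Gnas, Ube3a, Igf2r, Snrpn, Grb10, Igf2, H19, Copg2, Impact and Cdkn1c, and between 1 and 10 TPM for the other 10. The detected members had a median of 9.7 TPM, against 8.65 TPM for all detected genes, and 10 of them lay above that value.

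All 32 members together summed to 727 TPM in replicate 1 and 769 TPM in replicate 2, a mean of 748 ± 29.9 (SD, n = 2). Gnas alone held 63.3% of that sum in replicate 1 and 63.4% in replicate 2. With Ube3a, Igf2r and Snrpn added, the share was 82.4% and 81.6%. The remaining 28 genes were thus a small part of the summed member level in both libraries. That sum is of total levels and not of RNA known to come from 1 parental copy. The median over all 32 members was 1.67 TPM in replicate 1 and 2.42 TPM in replicate 2.

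**Figure D1:**
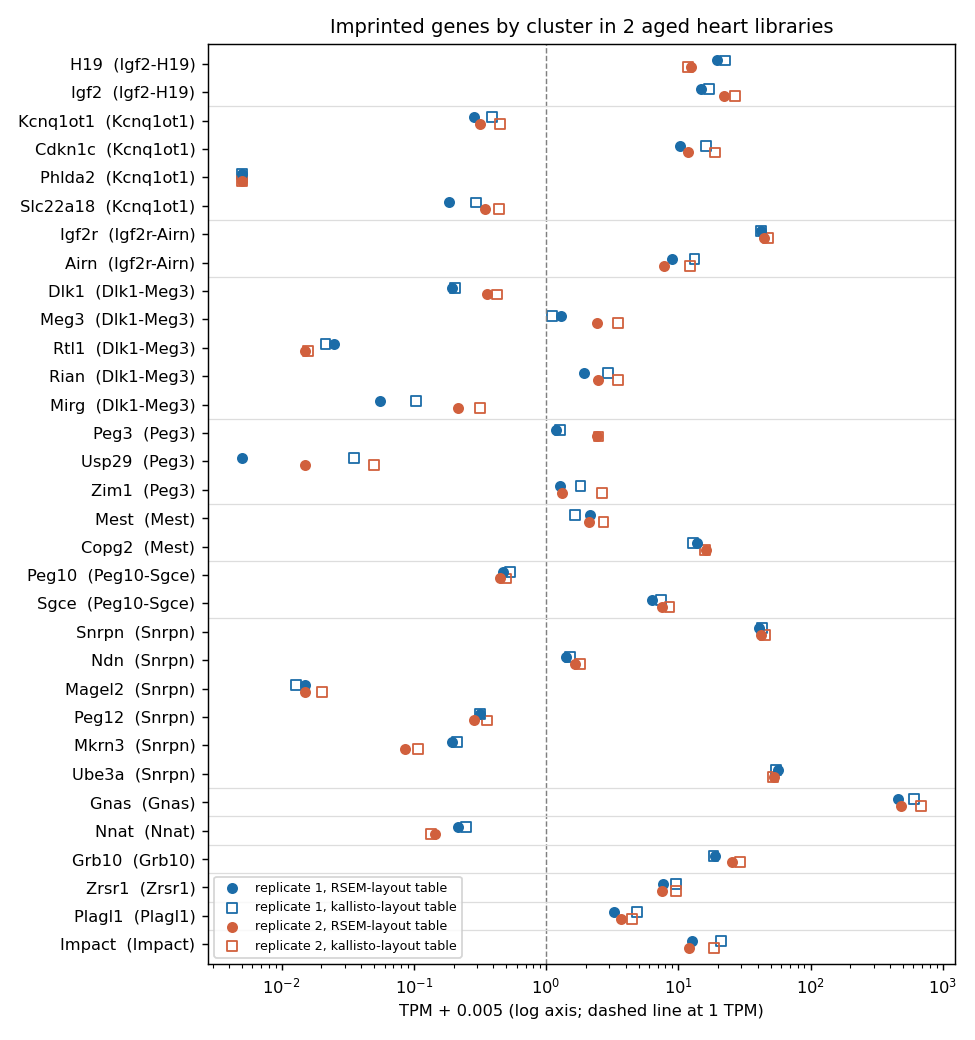
Level of each of the 32 imprinted genes, with its cluster in brackets, as TPM + 0.005 on a log axis; filled circles are the RSEM-layout table and open squares the kallisto-layout table, blue for replicate 1 and orange for replicate 2, and the dashed line marks 1 TPM. Gnas lies far to the right at 459.7 and 488 TPM, and Phlda2, with no counts, sits at the left edge.

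The Igf2-H19 cluster on chromosome 7 holds a fetal growth factor and a noncoding RNA that share enhancers, Igf2 being expressed from the paternal and H19 from the maternal copy. H19 (chr7:142575529-142578143, minus strand) stood at 19.8 TPM in replicate 1 against 12.4 in replicate 2, from 1084 and 652 counts. Igf2 (chr7:142650766-142666816, minus strand) had 14.7 and 22.1 TPM, from 955 and 1222 counts. H19 was thus the higher of the pair in replicate 1 and Igf2 in replicate 2, and the order of the pair was not called. The summed level of the pair was 34.5 and 34.4 TPM.

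H19 was the member with the lowest ratio between the libraries among the 20 detected. Its ratio of CPM, replicate 2 over replicate 1, was 0.585, with an exact 95% interval of 0.530 to 0.645 that covers counting error only. For Igf2 the same ratio was 1.24, with an interval of 1.14 to 1.36. H19 had 22.7 and 11.8 TPM and Igf2 17.2 and 27.0 TPM in the kallisto-layout table, with the same directions. The erythroid markers, like H19, were lower in replicate 2, by the sums given above, and their part in this was not tested. Of the 31-nt words in Igf2 transcripts, 61.9% also occur in Gm49394, a gene model that overlaps Igf2 on the same strand and was listed at 0 TPM in both libraries, so the level of Igf2 depends on how reads were shared between these models.

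The annotated starts of Igf2 fall into 5 groups, and none dominated in the RSEM-layout table. The start group at chr7:142656018-142657496 held 29.2% and 23.3% of Igf2 TPM in replicates 1 and 2, and the group at chr7:142661205-142661870 held 30.2% and 27.6%. The kallisto-layout table gave 58.6% and 77.0% to the former. The outermost start held 0.136% in replicate 1 and 19.8% in replicate 2 in the RSEM-layout table and 0 in the other table, so the start region of Igf2 was not resolved by these tables.

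H19, Igf2, Mest, Meg3 and Rian were the 5 detected members whose annotated spans contain microRNA genes. On the strand of the host, 45 mature microRNAs lie in 8 members, with 44 different seeds. The seed is bases 2 to 8, which pair with targets. MicroRNA genes on the other strand, such as several within Rtl1, were not counted. The 15 in the 5 detected hosts carry 15 different seeds, so no seed is shared among them. The mature sequences of 1 microRNA pair of each detected host are shown because these small RNAs are encoded within the hosts. They are those of RefSeq, build GRCm38.p6, written 5′ to 3′ with the seed in capitals.
mmu-miR-675-5p: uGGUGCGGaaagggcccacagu
mmu-miR-675-3p: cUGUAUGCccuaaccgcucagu
mmu-miR-483-5p: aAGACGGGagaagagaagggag
mmu-miR-483-3p: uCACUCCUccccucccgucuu
mmu-miR-335-5p: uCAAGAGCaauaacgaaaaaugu
mmu-miR-335-3p: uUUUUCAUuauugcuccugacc
mmu-miR-770-5p: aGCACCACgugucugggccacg
mmu-miR-770-3p: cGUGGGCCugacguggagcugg
mmu-miR-370-5p: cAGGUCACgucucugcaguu
mmu-miR-370-3p: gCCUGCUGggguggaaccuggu

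The pair of miR-675 lies in H19, with the 5p arm at chr7:142577112-142577133 on the minus strand. The miR-483 pair lies in Igf2, with its 5p arm at chr7:142654968-142654989 on the minus strand. The miR-335 pair lies in Mest, with its 5p arm at chr6:30741314-30741336 on the plus strand. The miR-770 and miR-370 pairs lie in Meg3 and Rian, with 5p arms at chr12:109563710-109563731 and chr12:109618270-109618289 on the plus strand. Levels of the microRNAs themselves could not be read. Inside members and on the same strand were 38 small RNA genes, 25 microRNA and 13 small nucleolar RNA genes. Of these, 37 had an effective length of 0 in the RSEM-layout table, so no read could be assigned to them. The host levels therefore describe the long RNA only.

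The Igf2r-Airn cluster on chromosome 17 holds Igf2r, the receptor that carries IGF2 to the lysosome and is expressed from the maternal copy, and Airn, the paternal antisense RNA that starts inside it. Igf2r (chr17:12682406-12769664, minus strand) had 42.1 TPM in replicate 1 against 44.9 in replicate 2, a mean of 43.5 ± 1.99 (SD, n = 2), from 10206 and 11531 counts. Airn (chr17:12741311-12860136, plus strand) had 8.89 and 7.81 TPM, from 231 and 221 counts. The sense gene was higher in both libraries, with a log2 ratio of 2.37 ± 0.20 (SD, n = 2). The gene spans overlap over 28354 nt, and the strand setting is not stated. No 31-nt word of the annotated Igf2r transcripts, on either strand, occurs in those of another gene. Reads of unspliced RNA from the overlap could still have been counted for the wrong gene. In the kallisto-layout table Airn had 13.3 and 12.3 TPM and the log2 ratio was 1.81. Igf2r-201 held 98.8% and 99.3% of the level of its gene. Airn values are for the annotated spliced transcripts, while most Airn RNA is known to be unspliced.

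The Kcnq1ot1 cluster, also on chromosome 7, holds the paternal antisense RNA Kcnq1ot1 and maternally expressed genes near it. Cdkn1c (chr7:143458339-143461050, minus strand), the cell cycle inhibitor p57, had 10.3 and 11.8 TPM from 395 and 476 counts. It was the only detected member of this cluster. Slc22a18, a membrane transporter, had 0.18 and 0.34 TPM from 7 and 13 counts. Phlda2, a restrainer of placental growth, had 0 counts in both libraries, and 3 of the 5 placenta and yolk sac markers were also at 0, with a sum over the list of 0.05 TPM in each library.

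Kcnq1ot1 shows how length enters the level. It had 719 counts in replicate 1 and 850 in replicate 2, more than Cdkn1c, but only 0.28 and 0.31 TPM, since it is annotated as an unspliced RNA of 93092 nt (chr7:143203458-143296549, minus strand). By TPM it stayed under the detection threshold. It lies wholly inside Kcnq1 on the other strand, and since the strand setting of the counting is not stated, its reads cannot be told apart from intronic reads of Kcnq1. Kcnq1, a potassium channel gene, had 14.1 and 14.2 TPM, a log2 ratio of 5.17 ± 0.08 over Kcnq1ot1 (SD, n = 2). With 23 members at 10 or more counts in both libraries, the genes that passed by counts and not by TPM were Kcnq1ot1, Peg10 and Peg12.

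The Dlk1-Meg3 cluster on chromosome 12 holds paternally expressed protein genes and maternally expressed noncoding RNAs. Meg3 (chr12:109541001-109571726, plus strand) had 1.30 TPM in replicate 1 against 2.43 in replicate 2, from 66 and 113 counts. Rian (chr12:109603940-109661716, plus strand), a host of small nucleolar RNAs, had 1.92 and 2.48 TPM from 69 and 105 counts. Mirg, which carries 26 of the 45 mature microRNAs, had 0.05 and 0.21 TPM from 3 and 8 counts. The noncoding RNAs at the Meg3 and Rian end were detected, and Mirg was not.

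The protein genes of that cluster were close to the limit of detection. Dlk1, a Notch-like membrane protein of fetal tissues and preadipocytes, had 0.19 and 0.35 TPM from 7 and 9 counts. Rtl1, a gag-pol-derived gene of the placenta and fetal muscle, had 0.02 and 0.01 TPM from 3 and 2 counts. Meg3 was higher than Dlk1 in both libraries, with a log2 ratio of 2.38 ± 0.16 (SD, n = 2), and Meg3 and Rian were not told apart. In the kallisto-layout table Meg3 had 1.11 and 3.52 TPM, which made it 2-fold or more higher in replicate 2 there but not in the RSEM-layout table. All the adipocyte markers were higher in replicate 2, and the part of this in the level of any member was not tested.

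The Peg3 cluster on chromosome 7 holds zinc finger genes and Usp29. Peg3 (chr7:6703892-6730431, minus strand), a paternally expressed zinc finger protein, had 1.18 TPM in replicate 1 against 2.41 in replicate 2, from 270 and 544 counts. This was the largest ratio between the libraries of the 20 detected members, 1.96 on CPM, with a 95% counting interval of 1.69 to 2.28. Zim1, a maternally expressed zinc finger gene, had 1.26 and 1.32 TPM. Usp29, a ubiquitin protease gene that starts beside Peg3 on the other strand, had 0 and 1 count.

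The starts of Peg3 and Usp29 are 146 bases apart, so the same short stretch holds both, with Peg3 detected and Usp29 at 0 to 1 count. It is printed here because it is the whole annotated interval between the start of a detected gene and that of an undetected one. It runs over chr7:6730432-6730577 on the minus strand (RefSeq, GRCm38.p6), the strand of Peg3, and its 5 CG dinucleotides are in capitals.
Peg3 to Usp29 interval: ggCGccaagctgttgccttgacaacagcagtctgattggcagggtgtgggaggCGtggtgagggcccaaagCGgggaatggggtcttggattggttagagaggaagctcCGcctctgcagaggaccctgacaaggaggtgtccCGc

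Sgce and Peg10 form another divergent pair. Sgce (chr6:4674350-4747207, minus strand), the epsilon sarcoglycan of the dystrophin complex, had 6.35 and 7.56 TPM from 286 and 353 counts. Peg10, a gag-pol-derived gene needed in the placenta, starts 98 bases away on the other strand and had 0.47 and 0.44 TPM from 85 and 84 counts. Both genes are paternally expressed, and Sgce was higher by a log2 ratio of 3.66 ± 0.23 (SD, n = 2). Peg10 and Rtl1, related gag-pol-derived genes, were both undetected.

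The Mest cluster on chromosome 6 holds Mest, a paternally expressed hydrolase-like protein of mesoderm, and Copg2, a coat protein subunit of vesicles that overlaps its 3′ end from the other strand. Copg2 (chr6:30747554-30896794, minus strand) had 13.9 and 16.3 TPM, and Mest (chr6:30723547-30748465, plus strand) had 2.16 and 2.10 TPM from 105 and 141 counts. Copg2 was higher in both libraries, with a log2 ratio of 2.76 ± 0.19 (SD, n = 2). Of the 31-nt words of Mest, counted without regard to strand, 22.0% occur in Copg2, and the strand setting of the counting is not given in the sources used here. Reads from these stretches may therefore have come from either gene. The start group at chr6:30738050-30738055 held 75.9% and 82.4% of Mest TPM in the RSEM-layout table but 67.1% and 29.5% in the kallisto-layout table.

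The Snrpn cluster on chromosome 7, the mouse counterpart of the Prader-Willi and Angelman region, held the widest range of levels. Ube3a (chr7:59228750-59311536, plus strand), a ubiquitin ligase that is imprinted in neurons and expressed from both copies elsewhere, had 56.6 and 53.1 TPM from 5932 and 5673 counts. Snrpn (chr7:59982495-60140219, minus strand), a spliceosomal SmN protein, had 40.7 and 42.3 TPM. These were the genes ranked 2 and 4 among the 32. The other members of the cluster were far lower.

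Ndn (chr7:62346569-62350262, plus strand), a growth suppressor of the MAGE family, had 1.42 and 1.64 TPM from 143 and 174 counts. Peg12, a FRAT family inhibitor of GSK3, had 0.31 and 0.28 TPM from 22 and 21 counts. Mkrn3, a RING finger ubiquitin ligase, had 0.19 and 0.08 TPM from 13 and 6 counts. Magel2, the MAGE family neighbour of Ndn, had 1 count in each library. Ndn was higher than Magel2 by a log2 ratio of 3.89 ± 0.14 (SD, n = 2), and lower than Snrpn by 4.68 ± 0.10. With 1 count for Magel2 in each library, the former ratio rests on the 0.1 TPM added to each level. With 1 TPM added it was 1.32. The 7 neuron and Schwann cell markers summed to 2.12 and 2.26 TPM, with Th and Snap25 at 0.

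The gene-level value of Snrpn agreed between the tables while its transcripts did not. The RSEM-layout table gave 100% of Snrpn TPM to Snrpn-201 in both libraries, and the kallisto-layout table gave 100% to Snrpn-202. Snurf, which is made from the same bicistronic RNA, was listed at 109 and 94.9 TPM in the RSEM-layout table, over an effective length of 117 nt, and at 0 in the kallisto-layout table. Snrpn has 34.5% of its 31-nt words in common with other genes. Ube3a and its antisense partner Snhg14 had a log2 ratio of 4.49 ± 0.23 (SD, n = 2), with Snhg14 at 2.73 and 2.02 TPM. In neurons Snhg14 is known to extend across Ube3a, where it silences the paternal copy.

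Gnas (chr2:174284320-174346744, plus strand) codes for the stimulatory G protein alpha subunit, which couples beta-adrenergic receptors to adenylyl cyclase in the cardiomyocyte. It had 459.7 TPM in replicate 1 against 488 in replicate 2, from 20902 and 23279 counts, higher than 98.8% of all detected genes. It was the most abundant member in both libraries and in both tables, at 609 and 682 TPM in the kallisto-layout table. The locus is known to have several promoters with different imprints, from 5′ to 3′ those of Nesp (maternal), Gnasxl (paternal), exon 1A (paternal) and the G protein alpha subunit itself, which is used from both copies in most tissues.

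The transcripts of Gnas were grouped by their annotated start. The Nesp-type start held 0.04 and 0 TPM, and the Gnasxl-type start held 0.02 TPM in each library. The G protein alpha start held 456 and 480.1 TPM, or 99.1% and 98.5% of the gene. Thus the starts that are imprinted in most tissues carried little of the Gnas RNA in this table. The tables disagreed on the exon 1A-type start, which held 1.81 and 2.43 TPM in the RSEM-layout table and 127 and 157 TPM in the kallisto-layout table. In the latter the G protein alpha start held 79.0% and 76.9%, and the Nesp-type start held 0.223 and 0.225 TPM. Antisense to the locus, Nespas had 0 and 0.06 TPM.

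The windows of 250 bases before the Nesp-type start and before the G protein alpha start are shown because the former start held almost none of the Gnas RNA and the latter most of it in both tables. They are from RefSeq, GRCm38.p6, plus strand, at chr2:174284070-174284319 and chr2:174329756-174330005, with each CG dinucleotide in capitals.
Gnas, Nesp-type start: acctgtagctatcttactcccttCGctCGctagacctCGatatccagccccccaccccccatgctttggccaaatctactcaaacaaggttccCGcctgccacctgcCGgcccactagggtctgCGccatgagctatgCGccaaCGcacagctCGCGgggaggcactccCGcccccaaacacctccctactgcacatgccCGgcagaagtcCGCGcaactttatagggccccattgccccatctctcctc
Gnas, G protein alpha start: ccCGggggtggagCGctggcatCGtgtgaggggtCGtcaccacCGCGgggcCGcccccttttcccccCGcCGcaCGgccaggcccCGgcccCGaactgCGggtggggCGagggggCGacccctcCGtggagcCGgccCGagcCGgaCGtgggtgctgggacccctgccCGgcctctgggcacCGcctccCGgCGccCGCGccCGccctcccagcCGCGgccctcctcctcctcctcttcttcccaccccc

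The Nesp-type window held 14 CG dinucleotides, more than 70.6% of 32851 such windows over the RefSeq genes, and the G protein alpha window held 29, more than 93.2% of them. The median over all windows was 6, and over the 39 windows of the 26 members that matched by symbol it was 10. The richest member window was that of the main Grb10 start, with 40, more than 98.7% of windows. Among motifs searched on both strands, TGCCGC, the core bound by ZFP57 when methylated, was in 6 of 39 member windows and in 8.68% of all windows. The YY1 motif GCCATNTT was in 2 of 39 and in 3.91% of all, and TATAAA was in 8 of 39 and in 12.4% of all. Several windows of the same gene overlap, and a match is a description of letters and not a bound site.

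**Figure D2:**
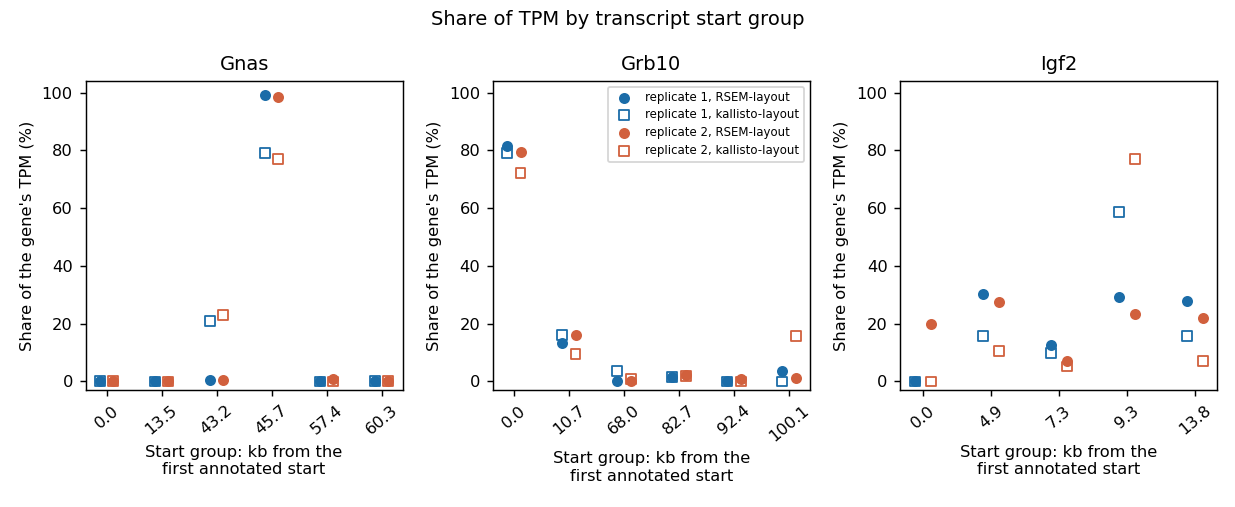
Share of the TPM of Gnas, Grb10 and Igf2, in percent, held by each group of annotated transcript starts, placed by its distance in kb from the first annotated start; circles are the RSEM-layout table, squares the kallisto-layout table, blue replicate 1 and orange replicate 2. The Gnas group at 45.7 kb, the G protein alpha start, held 99.1% and 98.5% in circles and 79.0% and 76.9% in squares, while the Igf2 starts differ between the tables.

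The remaining members lie alone or in small clusters. Grb10 (chr11:11930508-12038683, minus strand), an adaptor that dampens insulin and IGF receptor signalling and is paternal in neurons and maternal elsewhere, had 18.9 TPM in replicate 1 against 25.6 in replicate 2. Its ratio of CPM was 1.34, with a counting interval of 1.27 to 1.41. The outermost start group of Grb10 held 81.5% and 79.6% of its TPM, with Grb10-201 as its transcript. In the kallisto-layout table that start held 79.1% and 72.2%.

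Impact, a regulator of the GCN2 stress kinase on chromosome 18, had 12.7 and 12.1 TPM from 866 and 793 counts. Zrsr1 (chr11:22972005-22976496, plus strand), a splicing factor retrogene inside an intron of Commd1, had 7.65 and 7.52 TPM. Plagl1 (chr10:13060504-13131694, plus strand), a zinc finger protein of fetal growth, had 3.28 and 3.65 TPM from 170 and 272 counts. The levels of these 3 paternally expressed genes were close between the libraries, although the CPM ratio of Plagl1, which does not use transcript length, was 1.56 with a counting interval of 1.28 to 1.90.

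Nnat, a proteolipid of brain and endocrine cells that lies in an intron of Blcap, had 0.21 and 0.14 TPM from 6 and 3 counts. Its host Blcap had 25.6 and 21.9 TPM, a log2 ratio of 6.44 ± 0.10 over Nnat (SD, n = 2). Commd1 likewise exceeded its own intronic gene Zrsr1, by 2.96 ± 0.02. In the 7 overlapping pairs of a member with a partner gene, the same gene was higher in both libraries by more than the difference between them. The strand setting is not stated for any of these pairs.

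Members were also grouped by the allele they are known to use in mouse tissues. Of 10 maternally expressed members 7 were detected, and of 19 paternally expressed members 10 were. The 3 whose imprint depends on isoform or tissue, Gnas, Grb10 and Ube3a, were all detected and together held 535 and 566 TPM. The maternal members summed to 90.8 and 92.1 TPM, led by Igf2r, and the paternal members to 101 and 111 TPM, led by Snrpn. The medians of the maternal and paternal groups were 2.03 and 1.53 TPM. Whether reads from both parental strains of these hybrid mice were counted alike was not tested, and this could enter the maternal and paternal levels. These groupings describe the genes and not the alleles in the libraries, which were not resolved.

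Among the 20 detected members, none was 2-fold or more apart between the libraries, where 4.22% of 12510 genes with a mean of 1 TPM or more were. Of these, 3.30% were higher and 0.919% lower in replicate 2. The ratios were taken on TPM + 0.1. In 14 of the 20 the level was higher in replicate 2, against 54.0% of all such genes, and the median log2 ratio was 0.12 against 0.02 for all of them. The 95% counting interval of the ratio of CPM lay above 1 for 13 members, below 1 for 3, H19, Ube3a and Impact, and included 1 for 4. Directions by TPM and by CPM, which does not use transcript length, differed for Mest and Zim1. Mest was lower in replicate 2 by TPM, but its CPM ratio was 1.31, with an interval of 1.01 to 1.70. Zim1 was higher by TPM, but its CPM ratio was 0.839, with an interval of 0.646 to 1.09. Over all such genes the interval excluded 1 in 45.0%. With 1 library on each side there was no replicate check of any ratio.

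**Figure D3:**
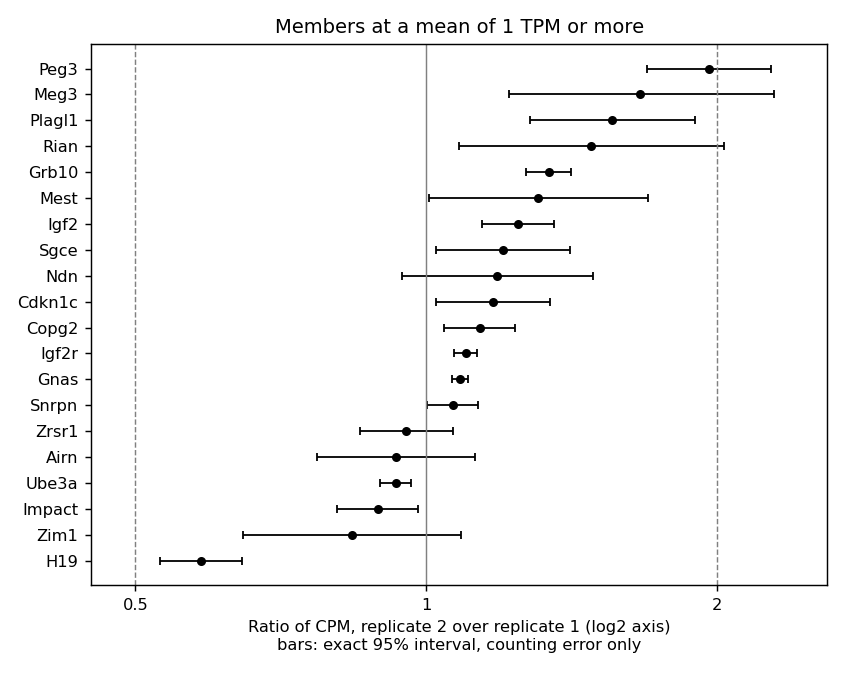
Ratio of CPM, replicate 2 over replicate 1, for the 20 detected members on a log2 axis, with exact 95% intervals that cover counting error only; dashed lines mark 2-fold. Peg3 is highest at 1.96 and H19 lowest at 0.585, and all points lie inside the dashed lines.

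Levels of members were also set beside those of overlapping or neighbouring genes, some of them imprinted too, and of paralogs. A pair was called where both libraries put the same gene higher by more than the difference between the libraries, on the scale of log2(TPM + 0.1). Of 37 pairs 32 were called, with 18 of 21 paralog pairs among them. The share called among other pairs of genes was not computed, so these counts carry no result particular to imprinted genes. In 19 of the paralog pairs the relative is not itself a member, and of these 16 were called, 7 with the member higher and 9 with its relative higher.

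In several paralog pairs the member was the higher gene. Igf2 exceeded Igf1, which had 4.16 and 4.34 TPM, by a log2 ratio of 2.06 ± 0.37 (SD, n = 2). Igf2r exceeded M6pr, the other mannose 6-phosphate receptor, by 1.36 ± 0.04, with M6pr at 16.0 and 17.8 TPM. Plagl1 exceeded Plag1 by 1.25 ± 0.28 and Plagl2 by 1.08 ± 0.05. Zrsr1 exceeded Zrsr2, its parent gene on the X chromosome, by 1.05 ± 0.30.

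In other pairs, Grb10 of the IGF pathway among them, the relative was higher. Sgca, the muscle sarcoglycan related to Sgce, had 69.8 and 71.7 TPM, and the log2 ratio of Sgce to it was -3.33 ± 0.15 (SD, n = 2). Grb14, the adaptor nearest to Grb10, had 77.5 and 87.7 TPM, with a ratio of -1.90 ± 0.18, while Grb7 was at 0 and 0.08 TPM. The cell cycle inhibitor Cdkn1a had 32.4 and 57.9 TPM and exceeded Cdkn1c, with a ratio of -1.96 ± 0.46. Mkrn1 had 41.8 and 23.4 TPM against 0.19 and 0.08 TPM for its intronless relative Mkrn3.

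Some pairs were close. Snrpb, which codes for the SmB proteins, had 52.0 and 52.9 TPM against 40.7 and 42.3 TPM for Snrpn, a ratio of -0.34 ± 0.02 (SD, n = 2). Cdkn1b had 13.9 and 16.2 TPM, and the ratio of Cdkn1c to it was -0.44 ± 0.02, but 0.04 ± 0.02 in the kallisto-layout table, where the pair was not called. Copg2 and Copg1, the coat subunit pair, were not told apart by these values, but Copg1 was called higher from the kallisto-layout table, with a ratio of -0.41 ± 0.01. Other pairs were far apart. Gnal, the G protein alpha subunit of olfactory neurons and striatum, had 0.08 and 0.07 TPM, against 459.7 and 488 TPM for Gnas. Phlda3 and Phlda1 had 3.81 and 6.64 TPM in replicate 1 and 4.27 and 3.77 TPM in replicate 2, where Phlda2 had no counts.

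**Figure D4:**
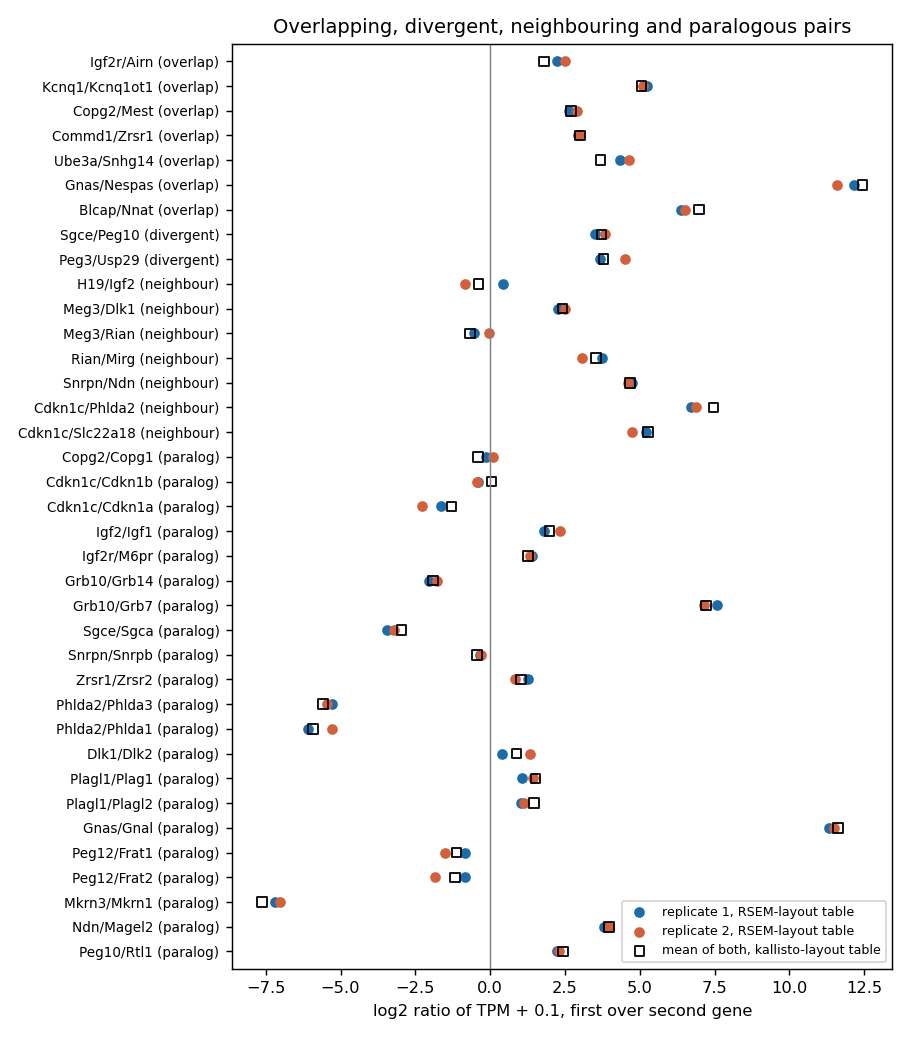
Log2 ratio of TPM + 0.1 of the first over the second gene in 37 pairs, by kind of pair; blue and orange circles are replicates 1 and 2 in the RSEM-layout table and squares the mean in the kallisto-layout table. All 7 overlapping pairs lie to the right of 0, but the gene written first is a member in some and its partner in others, so that side is not a result. Paralog pairs, with a member written first, lie on both sides, and the H19 and Igf2 pair straddles 0.

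Other genes of the same biology were read from 3 lists. Of 41 further imprinted genes, 21 were detected and 8 were at 0 TPM in both libraries. Imprinting can be limited to some tissues, and whether these genes are imprinted in the heart was not tested. The most abundant was Dcn, the matrix proteoglycan decorin and a fibroblast marker, with 135 and 142 TPM, followed by Commd1 with 59.5 and 59.9 TPM and Blcap. None of the 21 was 2-fold or more apart between the libraries. The median of that list was 1.3 TPM over all 41 genes, beside library medians of 1.67 and 2.42 TPM for the 32 members.

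Among 20 genes listed for the setting, keeping or removal of imprints, Tet1, Tet2 and Tet3 among them, 14 were detected. Trim28, the corepressor that zinc finger proteins bring to imprinted marks, led with 35.1 and 37.6 TPM. Zfp445, a zinc finger protein that guards imprints, had 24.9 and 24.4 TPM, and the DNA methyltransferase gene Dnmt3a had 21.9 and 15.1 TPM. The 6 not detected, named after their values were seen, were Zfp57, Uhrf1, Dnmt3b, Dnmt3l, Ctcfl and Dppa3. Zfp57 had 0.28 and 0.77 TPM.

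Of 18 genes of the IGF axis, the pathway of Igf2, Igf2r and Grb10, 13 were detected. Igfbp7, a secreted binding protein of vessels, led with 53.1 and 64.8 TPM, followed by the insulin receptor Insr with 54.5 and 53.4 TPM and the binding protein Igfbp5 with 42.8 and 48.0 TPM. The type 1 receptor Igf1r, named after its values were seen, had 6.13 and 6.04 TPM. Igfbp1 was at 0 in both libraries, and none of the 13 was 2-fold or more apart on TPM + 0.1. The nearest to it, Irs2, an adaptor of the insulin and IGF receptors named after its values were seen, had 3.61 and 7.20 TPM, and its CPM ratio was 2.05, with a counting interval of 1.86 to 2.25.

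Transcript shares were read for the 19 detected members with several annotated transcripts. The leading transcript matched between the libraries for 16 of them and between the tables for 13, and its median share was 48.6% of the gene. In both libraries it held as much as all other transcripts together, or more, for 8 genes. The same shares over all detected genes were not computed, so these counts carry no result particular to imprinted genes. Peg3-201 held 90.7% and 80.8%, H19-202 78.7% and 65.3%, and Sgce-205 80.6% and 56.3%. Gnas, Ube3a and Airn were among the genes whose top transcript differed between the tables.

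The tables agreed better on gene levels than on transcripts. The mean TPM was over 1.5 times apart for 4 of the 20 detected members, Zim1, Impact, Cdkn1c and Airn, against 12.1% of all detected genes. In 18 of the 20 the kallisto-layout value was the higher one, as it was in 81.7% of all detected genes. Cdkn1c shares 27.2% of its 31-nt words with the gene model Gm44732, and Impact shares none with any other gene. Gm44732 had only 0.13 and 0.19 TPM in the RSEM-layout table and 0.213 and 0.209 TPM in the kallisto-layout table. The part of shared words in the gaps between the tables was not tested.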

How the data were processed

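Heart total RNA of 2 libraries in 1 group was read from deposited tables. Per the deposited readme the tables refer to mm10 and GENCODE M21. Programs, versions and strand setting: not stated in the labels, headers or readme. The tables are therefore named by their column layouts, RSEM and kallisto. Expected or estimated counts were deposited by the authors as reads per gene or transcript, with reads that fit several features split among them. TPM was deposited by the authors per length and scaled over all rows, spike-ins included, as maximum likelihood value and posterior mean. The authors deposited FPKM, a level per kilobase that is scaled to depth. The isoform percent was deposited by the authors as the part of a gene's TPM that a transcript takes. Lengths and effective lengths were deposited beside them, per the file headers. RSEM-layout TPM gives the values unless the kallisto-layout table is named, whose transcripts were summed per gene; 86 annotated genes are not in that table.

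The 32 members and the lists were chosen with earlier results of these data known. All members are named; of each list, the 3 highest by mean TPM, any 2-fold or more apart between libraries, and genes paired with a member are named. Detection was 1 TPM or more in both libraries. Ratios used TPM + 0.1 and a mean of at least 1 TPM, and exact 95% intervals of the ratio of CPM cover counting error only. Over 14992 genes the chi-square per degree of freedom between libraries was 31.5, so they are not copies of the same library, which does not show that they came from separate animals. Counts for replicate 2 against replicate 1 were simulated over 12383 genes with counting noise only. There, 200 of 200 genes changed 4-fold were recovered, 0.0985% of unchanged genes were called and 95.2% of intervals covered the true ratio. The larger spread between the real libraries was left out, so these shares check the calculation and not the 2-fold rule on these data. Transcript starts within 1500 bases of each other formed a group. Scaling alternatives used edgeR 4.0.16 (TMM factors 0.979 and 1.02) and DESeq2 1.42.0 (size factors 0.964 and 1.04) under R 4.3.3 over 15007 genes, with expected counts rounded. With 1 group there was no test of a condition and no p-value. Other alternatives were the second table, the posterior mean, FPKM, TPM over nuclear protein-coding genes, other pseudocounts and thresholds, and each library left out.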

Additional observations from a re-analysis of the deposited data

How the results depend on the processing

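No paired analysis was possible because there is only 1 group. The number of detected members lay between 20 and 23 under all alternatives, and pairs called between 32 and 33. The median level over all members, 2.04 TPM, was 2.94 with the posterior mean, 5.05 with TPM rescaled to nuclear protein-coding genes, which divides by a smaller total, and 9.70 over detected members only, which drops the low ones by construction. Leaving out a library gave 1.67 to 2.42. The count of members 2-fold or more apart between the libraries, 0, became 1 in the kallisto-layout table (Meg3), 1 with TPM over nuclear protein-coding genes (Peg3) and 1 with no filter on low values (Mirg, at 3 and 8 counts). It stayed 0 under TMM, DESeq2 size factors, the posterior mean and a pseudocount of 1. The median top transcript share, 48.6%, was 39.4% in the kallisto-layout table. The log2 ratio of Cdkn1c to Cdkn1b went from -0.44 to 0.0378 ± 0.0196 (SD, n = 2) in that table, where the pair was not called, while that of Copg2 to Copg1, not called before, was called at -0.41. The cause of these changes between tables was not tested. Some log2 ratios over a gene under 1 TPM shrank with a pseudocount of 1 in place of 0.1. That of Ndn to Magel2 went from 3.89 to 1.32, and that of Meg3 to Dlk1 from 2.38 to 1.15. For Sgce to Peg10 it went from 3.66 to 2.45, and for Kcnq1 to Kcnq1ot1 from 5.17 to 3.55. For Blcap to Nnat it went from 6.44 to 4.39. Leaving out a library could not be applied to the counts of members 2-fold apart and of pairs called, which need both. With 2 libraries that may share an animal, the SD is itself imprecise. Members under about 10 counts are known only to be low, and microRNA levels cannot be read here.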
